A study of Mus musculus with 75 samples.

Results

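The genes described here are 10 targets of the transcription factor p53, namely *Mdm2*, *Ccng1*, *Phlda3*, *Trp53inp1*, *Bax*, *Zmat3*, *Aen*, *Sesn2*, *Plk2* and *Gdf15*. They were chosen by symbol from a table of 55536 Ensembl genes, with earlier results of these data known. All 10 were among the 16221 genes with enough counts for edgeR's filter. RNA was sequenced from the inferior lung lobe of 75 male C57BL/6JRj mice, with 1 library per mouse. BLEO-IPF mice had received 1 intratracheal dose of bleomycin (BLEO, 1.5 mg/kg) at 12 to 14 weeks of age, and only animals that had lost between 5 and 17% of their weight by day 6 entered the study. There were 10 controls (CTRL), listed with the same age of 12 to 14 weeks. BLEO-IPF groups of 10, 12, 12, 12, 12 and 7 animals were examined 7, 14, 21, 28, 35 and 42 days after dosing. The labels describe CTRL mice as given saline, while the description of the treatment calls them untreated. Treatment and day were the only differences the labels give between the groups, and p53 itself was not manipulated. Later BLEO-IPF groups were also older at collection, and the paper reports mortality among BLEO-IPF mice over this period. Day can therefore not be told apart from age or survival.

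p53, encoded by *Trp53*, is a transcription factor that is stabilised when DNA is damaged. It then activates genes that stop the cell cycle, repair DNA, trigger apoptosis or limit its own activity, the last mainly through *Mdm2*, a ubiquitin ligase that marks p53 for degradation. Bleomycin cleaves DNA, and in the lung it injures alveolar epithelial and endothelial cells before inflammation and fibrosis follow. Several of the genes are also induced by other stress pathways, for example *Sesn2* and *Gdf15* by the transcription factor ATF4.

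The promoters of the genes were read from RefSeq sequences of GRCm38.p6, from 250 bases before to 50 bases after each annotated start. Such windows were present for 8 of the 10 genes, all but *Trp53inp1* and *Zmat3*. They were searched on both strands for the p53 decamer, the consensus unit of 10 letters of which p53 binds a pair. At least 1 exact decamer was found in 4 of these 8 genes, and in 8.36% of all 32851 promoter windows of the genome. With alternative starts counted, the 8 genes had 10 windows, of which 5 held a decamer. The same site of *Aen* was counted in each of its overlapping windows. These 4 are printed because they hold an exact decamer, in the order of their log2 fold change on day 7 (1.86, 1.14, 0.98 and 0.59). *Gdf15*, *Phlda3*, *Sesn2* and *Plk2* had windows with 0 exact decamers, and their log2 fold changes on day 7 were 3.37, 1.41, 1.05 and -0.19. A relation between decamer and change was not tested. *Ccng1* lies at chr11:40755237-40755536 (minus strand), *Aen* at chr7:78895677-78895976 (plus strand), *Bax* at chr7:45466849-45467148 (minus strand) and *Mdm2* at chr10:117710709-117711008 (minus strand). Capitals mark the decamer, and all sequences run in the direction of transcription.
Ccng1: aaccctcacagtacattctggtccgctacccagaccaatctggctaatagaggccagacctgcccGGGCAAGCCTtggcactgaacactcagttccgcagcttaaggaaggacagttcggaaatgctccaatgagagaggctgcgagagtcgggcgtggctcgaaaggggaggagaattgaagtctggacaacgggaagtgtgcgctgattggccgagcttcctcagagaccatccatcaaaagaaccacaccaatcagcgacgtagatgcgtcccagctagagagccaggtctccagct
Aen: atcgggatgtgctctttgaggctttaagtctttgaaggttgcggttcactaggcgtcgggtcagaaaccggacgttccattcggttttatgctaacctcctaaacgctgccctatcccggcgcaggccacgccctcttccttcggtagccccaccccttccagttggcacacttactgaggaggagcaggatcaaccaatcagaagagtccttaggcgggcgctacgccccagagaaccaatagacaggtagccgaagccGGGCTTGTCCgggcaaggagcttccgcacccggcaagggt
Bax: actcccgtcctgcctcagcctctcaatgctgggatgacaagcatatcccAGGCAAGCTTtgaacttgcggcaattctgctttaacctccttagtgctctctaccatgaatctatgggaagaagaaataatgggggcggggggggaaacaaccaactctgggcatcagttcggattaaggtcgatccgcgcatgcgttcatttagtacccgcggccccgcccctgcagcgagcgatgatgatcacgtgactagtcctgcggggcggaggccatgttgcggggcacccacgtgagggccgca
Mdm2: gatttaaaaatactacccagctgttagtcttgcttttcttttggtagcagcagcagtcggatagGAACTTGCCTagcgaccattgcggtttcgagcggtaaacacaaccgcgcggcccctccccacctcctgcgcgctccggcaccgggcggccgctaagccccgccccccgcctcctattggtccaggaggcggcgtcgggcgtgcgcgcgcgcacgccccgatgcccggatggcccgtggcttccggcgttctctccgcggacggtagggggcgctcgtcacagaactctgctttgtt

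In *Ccng1* the decamer lay 185 to 176 bases before the start, and together with the letters directly before it formed a pair without a spacer that departed from the consensus at 1 position (bases -195 to -176). The decamer of *Bax* lay 201 to 192 bases before the start, with less exact second copies at a distance of 5 letters and of 1 letter, each pair with 2 mismatches. A pair with a spacer of at most 13 letters and at most 2 mismatches was found in these 2 genes and in 4.09% of all windows. The decamer of *Aen* began at base 11, counted from the first of its annotated starts, and that of *Mdm2* lay 186 to 177 bases before the start. A match to the motif describes the letters only.

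Compared with CTRL, 9, 8, 8, 8, 9 and 7 of the 10 genes were higher at the 6 times in order, and 0 were lower at any time (edgeR's quasi-likelihood test, Benjamini-Hochberg adjusted p under 0.05 over all genes tested). At an unadjusted p under 0.05, *Plk2* on day 7 was the 1 gene lower, and DESeq2 called 0 lower. Of all genes tested, 24.8%, 32.4%, 28.3%, 24.1%, 16.9% and 13.7% were higher at these 6 times. *Ccng1*, *Phlda3*, *Bax*, *Zmat3*, *Aen*, *Sesn2* and *Gdf15* were higher on all 6 days, as were 8.33% of all genes. *Mdm2* was higher up to day 35, *Trp53inp1* on days 7 and 35, and *Plk2* on no day. The median log2 fold change (log2FC) of the 10 genes, in the same order of days, was 1.02, 0.95, 0.85, 0.70, 0.52 and 0.56, while the median over all genes lay between -0.00 and 0.02. Because each day is compared with the same 10 CTRL mice, a chance deviation of these mice would enter all 6 comparisons. The genes had been chosen with earlier results of these data known, so their counts beside the shares of all genes are a description only.

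**Figure D1:**
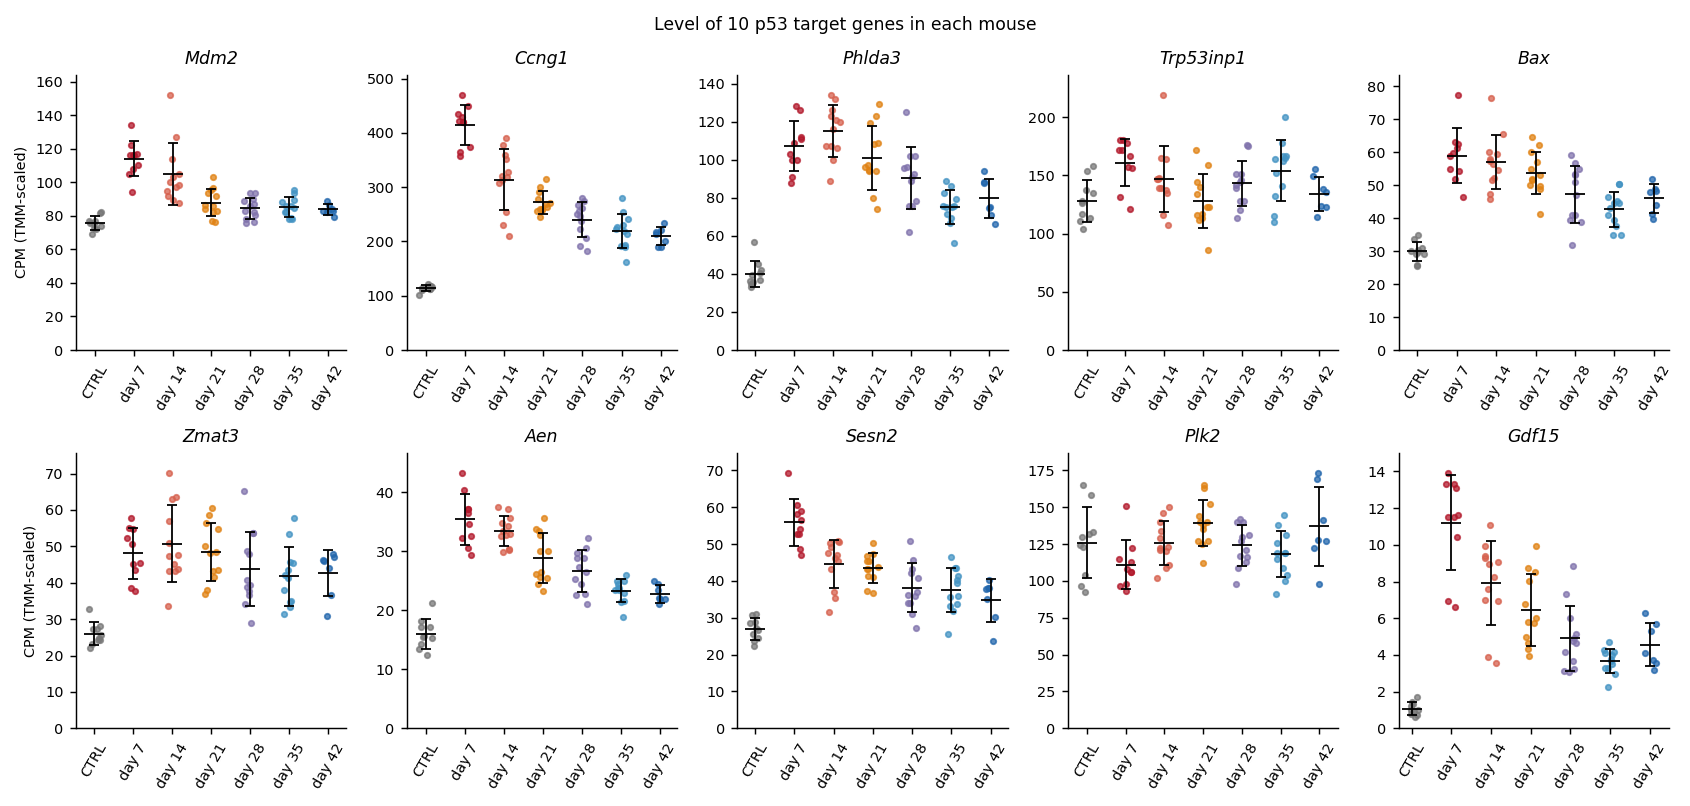
Level of each p53 target gene in each mouse, in CPM (TMM-scaled counts per 1000000, vertical axis, from 0), by group (horizontal axis). Each point is 1 mouse, the horizontal bar is the group mean and the error bar the SD. The CTRL mice of *Ccng1* (102 to 122 CPM) lie below every BLEO-IPF mouse, whereas the groups of *Plk2* overlap throughout.

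Total counts ranged from 9240291 to 14665247 per library. In 4 libraries (day 14 mouse 8 and day 28 mice 1, 5 and 10) the log2 CPM values correlated with their group's median at under 0.97, compared with 0.972 to 0.994 in the others. Without them, the numbers of genes called on the 6 days were 9, 8, 8, 8, 9 and 8, the difference being *Mdm2* on day 42. In RNA from whole tissue, fewer cells of a type and less RNA per cell cannot be told apart. Surfactant-producing AT2 cell markers summed to between 20717 and 25536 CPM in CTRL mice and to between 5802 and 22166 CPM on day 14, and none of the 8 AT2 or 8 AT1 markers was at 0 in all libraries of any group.

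The first 4 genes act on p53 signalling itself or on growth. *Ccng1* encodes cyclin G1, a partner of protein phosphatase 2A in the feedback loop between p53 and Mdm2. Its level in the 10 CTRL mice was 102 CPM at the lowest, 114 at the median and 122 at the highest. On day 7 the corresponding values were 358, 421 and 470 CPM, and on day 14 they were 211, 320 and 390 CPM. All mice of both days were above all CTRL mice. On days 21, 28 and 35 the medians were 267, 249 and 221 CPM, and on day 42 the 7 mice lay between 190 and 234 CPM around a median of 214. At no time did a BLEO-IPF mouse reach down to the CTRL range. The log2FC was 1.86 on day 7 (standard error 0.08, adjusted p = 2.17e-30), a 3.64-fold level, and 0.88 on day 42 (standard error 0.09, adjusted p = 3.85e-12), a 1.84-fold level.

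*Mdm2*, the ubiquitin ligase for p53, changed far less. CTRL mice had 69 to 82 CPM (median 75.5), day 7 mice 93.9 to 134 CPM (median 116) and day 14 mice 87.5 to 152 CPM (median 99.3). These 2 days did not overlap with CTRL. Medians of 86.1, 84.4, 85.2 and 83 CPM followed on days 21, 28, 35 and 42, with ranges that overlapped CTRL on each day. The log2FC was 0.59 on day 7 (standard error 0.06, adjusted p = 5.52e-12) and 0.47 on day 14 (adjusted p = 3.24e-10). For days 21, 28 and 35 it was 0.22, 0.16 and 0.17 (adjusted p = 0.00152, 0.0232 and 0.0209), and for day 42 it was 0.15 (adjusted p = 0.0999). On day 42, 6 of 7 mice lay above the highest CTRL mouse, and the call was gained in a fit of only day 42 and CTRL (adjusted p = 0.00478).

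*Phlda3* encodes a pleckstrin homology domain protein that restrains the kinase Akt. It ranged from 33.2 to 56.9 CPM in CTRL (median 38.2), from 87.9 to 128 CPM on day 7 (median 106) and from 88.9 to 134 CPM on day 14 (median 118). Later the medians were 96.6, 91.8, 75.3 and 75.3 CPM on days 21, 28, 35 and 42. All BLEO-IPF mice were above all CTRL mice on each day but day 35, where 1 of 12 mice, at 56 CPM, fell within the CTRL range. Its log2FC was largest on day 14, at 1.52 (standard error 0.09, adjusted p = 1.4e-22), and was 0.99 on day 42 (standard error 0.10, adjusted p = 1.81e-11).

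*Plk2*, a polo-like kinase of the centrosome cycle, was the member without a call on any day. CTRL mice ranged from 92.2 to 165 CPM (median 127) and day 7 mice from 92.9 to 151 CPM (median 107), with a log2FC of -0.19 (standard error 0.09, adjusted p = 0.0838). On the later days the log2FC lay between -0.10 on day 35 and 0.14 on day 21, each with an adjusted p of at least 0.163. Among the BLEO-IPF days themselves it did differ, with a level on day 42 that was 0.30 higher than on day 7 on the log2 scale (standard error 0.10, adjusted p = 0.0232).

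**Figure D2:**
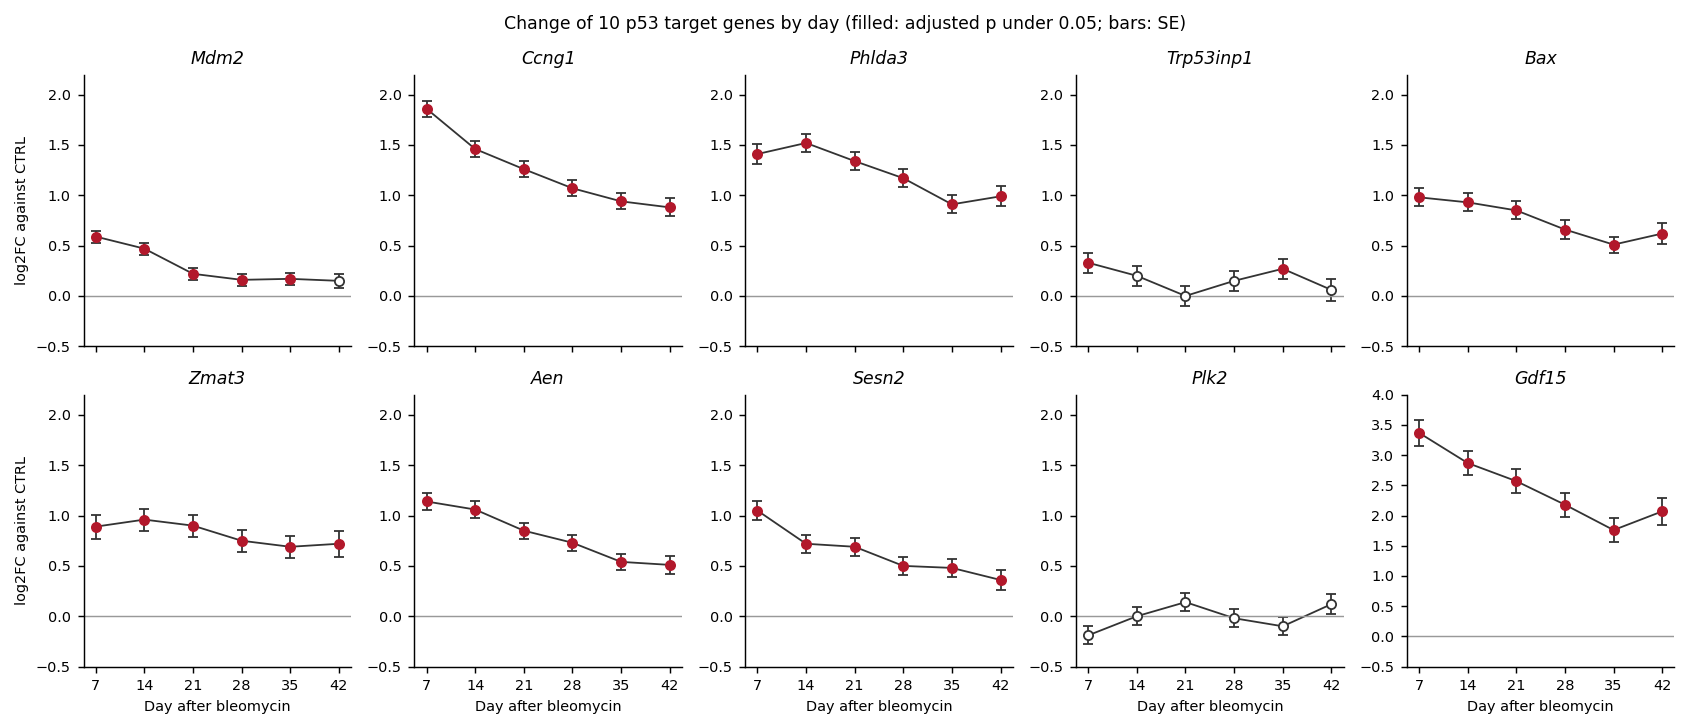
Fitted log2FC against CTRL (vertical axis) of each p53 target gene by day after bleomycin (horizontal axis), with standard errors as bars and filled points where the adjusted p was under 0.05. The panel of *Gdf15* has a wider scale. *Ccng1* falls from 1.86 on day 7 to 0.88 on day 42, and *Plk2* stays between -0.19 and 0.14.

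Of the genes that act in cell death or RNA control, *Bax* encodes the protein that permeabilises the outer mitochondrial membrane in apoptosis. CTRL mice had 25.4 to 35 CPM (median 29.7), day 7 mice 46.3 to 77.4 CPM (median 59.2) and day 14 mice 45.8 to 76.5 CPM (median 57). The medians were 52.5, 49, 43.8 and 48 CPM on the following 4 days. All mice exceeded all CTRL mice on days 7, 14, 21 and 42, and 11 and 10 of 12 mice did so on days 28 and 35. The log2FC was 0.98 on day 7 (standard error 0.09, adjusted p = 1.96e-14) and 0.62 on day 42 (standard error 0.10, adjusted p = 1.1e-06).

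*Aen* encodes an exonuclease that enhances apoptosis. Its CTRL range was 12.4 to 21.3 CPM (median 15.5), and its ranges on days 7 and 14 were 29.3 to 43.2 CPM (median 35.5) and 29.9 to 37.5 CPM (median 33.2). The medians on days 21, 28, 35 and 42 were 28.2, 26.8, 23.6 and 22 CPM. The first 3 days did not overlap with CTRL, while 11, 11 and 6 mice were above the highest CTRL mouse on days 28, 35 and 42. Its log2FC went from 1.14 on day 7 (standard error 0.08, adjusted p = 7.58e-20) to 0.51 on day 42 (standard error 0.09, adjusted p = 6.86e-06).

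*Zmat3*, a zinc finger protein that binds RNA and regulates splicing, ranged from 22 to 32.8 CPM in CTRL (median 25.3). Values of 37.8 to 57.9 CPM on day 7 (median 48.1) and 33.5 to 70.1 CPM on day 14 (median 47.4) lay above all CTRL mice. On days 21, 28, 35 and 42 the medians were 48.4, 40.2, 41.6 and 46.1 CPM, and at most 1 mouse per day reached into the CTRL range. The log2FC was 0.89 on day 7 (standard error 0.12, adjusted p = 3.64e-09), 0.96 on day 14 (standard error 0.11, adjusted p = 3.29e-11) and 0.72 on day 42 (standard error 0.13, adjusted p = 1.65e-05).

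*Trp53inp1*, a stress-induced nuclear protein that promotes p53 activity and autophagy, was called on only 2 of the 6 days. CTRL mice had 104 to 158 CPM (median 127), day 7 mice 121 to 180 CPM (median 169) and day 35 mice 110 to 200 CPM (median 163). The calls were on these 2 days, at log2FC 0.33 (standard error 0.10, adjusted p = 0.00469) and 0.27 (adjusted p = 0.0273). On day 21 its mean level was 128 CPM, as in CTRL, and the log2FC for days 14, 28 and 42 were 0.20, 0.15 and 0.06 (adjusted p = 0.0683, 0.191 and 0.71). Every day overlapped with CTRL.

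*Sesn2* encodes sestrin 2, an inhibitor of the growth kinase complex mTORC1. Its CTRL mice ranged from 22.4 to 31 CPM (median 27), compared with 47.1 to 69.2 CPM on day 7 (median 55.4) and 31.6 to 50.8 CPM on day 14 (median 46.6). The medians then were 43.5, 36.5, 37.7 and 37.9 CPM. Days 7, 14 and 21 did not overlap with CTRL, and 5 of 7 mice were above all CTRL mice on day 42. The log2FC was 1.05 on day 7 (standard error 0.09, adjusted p = 8.26e-15) and 0.36 on day 42 (standard error 0.10, adjusted p = 0.00568). Another gene annotated on the same strand, *Gm12981*, overlaps *Sesn2* and had 0.369% as many counts.

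*Gdf15* encodes a secreted cytokine of the TGFβ superfamily that is released by stressed cells. It was the least abundant of the genes per length in CTRL and the one with the largest fold change. CTRL mice had 0.593 to 1.71 CPM (median 1), from 6 to 18 counts per library, which limits the precision of all its fold changes. Day 7 mice had 6.62 to 13.9 CPM (median 11.6), day 14 mice 3.58 to 11.1 CPM (median 8.58) and day 42 mice 3.17 to 6.3 CPM (median 4.12). No BLEO-IPF mouse of any day was as low as the highest CTRL mouse. The log2FC was 3.37 on day 7 (standard error 0.21, adjusted p = 2.74e-22), a 10.4-fold level. It was 2.87, 2.57, 2.18 and 1.76 on days 14, 21, 28 and 35, and 2.07 on day 42 (standard error 0.22, adjusted p = 6.28e-11).

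Whether all mice of a day were above all CTRL mice is a stricter description of the same data. This held for 8 of the 10 genes on days 7 and 14 and for 7 on day 21. It then held for *Ccng1*, *Phlda3* and *Gdf15* (3 genes, day 28), for *Ccng1* and *Gdf15* (2 genes, day 35) and for *Ccng1*, *Phlda3*, *Bax* and *Gdf15* (4 genes, day 42). Among all genes tested the shares were 7.39%, 9.46%, 6.84%, 2.10%, 2.43% and 4.22% on the 6 days. The groups differ in size, and a group of 7 mice separates from CTRL more easily than one of 12. CTRL mouse 2 was the highest CTRL mouse for *Mdm2*, *Phlda3*, *Bax*, *Zmat3*, *Aen* and *Sesn2*, and so set the limit for these genes. Its *Phlda3* level was 56.9 CPM, compared with 45.1 CPM in the next CTRL mouse.

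The genes were then compared between days, which leaves CTRL out. Of the 10 genes, 9 differed among the 6 BLEO-IPF days, as did 48.3% of all genes, the exception being *Zmat3* (adjusted p = 0.113). Between day 14 and day 42, 7 genes were lower on day 42 and 0 were higher (0 also by DESeq2 and at an unadjusted p under 0.05), while 18.8% of all genes were lower and 15.2% higher. The differences were -0.79 for *Gdf15*, -0.58 for *Ccng1*, -0.55 for *Aen*, -0.53 for *Phlda3*, -0.36 for *Sesn2*, -0.32 for *Mdm2* and -0.31 for *Bax* on the log2 scale. The values of *Zmat3* (-0.25, adjusted p = 0.109), *Trp53inp1* (-0.13, adjusted p = 0.347) and *Plk2* (0.12, adjusted p = 0.328) did not pass the test. Against day 7, 7 genes were lower on day 42 (9.92% of all genes) and *Plk2* was higher (7.88% of all genes).

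Neighbouring days were compared next. *Ccng1*, *Sesn2* and *Gdf15* were already lower on day 14 than on day 7, by 0.40 (adjusted p = 0.000154), 0.33 (adjusted p = 0.00547) and 0.51 (adjusted p = 0.0246) on the log2 scale, compared with 7.55% of all genes lower and 9.48% higher. For *Phlda3* (0.11 on the log2 scale, adjusted p = 0.431), *Zmat3* (0.07, adjusted p = 0.694), *Bax* (-0.05, adjusted p = 0.747), *Aen* (-0.08, adjusted p = 0.487) and *Mdm2* (-0.12, adjusted p = 0.168), days 7 and 14 could not be separated. Whether the genes differ in the size of this step was not tested. *Mdm2* was lower on day 21 than on day 14 (adjusted p = 0.0143), a step at which 0.579% of all genes were lower. On day 42, *Zmat3* retained 80.5% of its day 7 log2FC, *Phlda3* 70.2%, *Bax* 63.4%, *Gdf15* 61.5% and *Ccng1* 47.2%. *Aen* retained 44.5%, *Sesn2* 34.7%, *Mdm2* 25.1% and *Trp53inp1* 19.4%, all given as a description without a test.

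When the 7 groups were ordered by mean level, CTRL was the lowest for 8 genes, all but *Trp53inp1* and *Plk2*. Day 7 was the highest for *Mdm2*, *Ccng1*, *Trp53inp1*, *Bax*, *Aen*, *Sesn2* and *Gdf15*, day 14 for *Phlda3* and *Zmat3*, and day 21 for *Plk2*. CTRL differed from the next group in the order for 7 of these 8 genes, the exception being *Mdm2*, for which the next group was day 42. Above CTRL, neighbouring groups differed in the 4 steps given above, day 14 to day 7 for *Ccng1*, *Sesn2* and *Gdf15* and day 21 to day 14 for *Mdm2*, and in none of the other steps of these genes.

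Levels can be compared between genes only per length, here in CPM per kilobase of exon. In CTRL the order was *Ccng1* (32.5), *Plk2* (28.1), *Phlda3* (25.7), *Trp53inp1* (19.8), *Bax* (19), *Mdm2* (14.9), *Sesn2* (7.76), *Aen* (2.76), *Zmat3* (2.27) and *Gdf15* (0.58). On day 7 *Ccng1* stood at 118 and *Phlda3* at 68.4, and *Gdf15* at 6.06 had come level with *Aen* at 6.09. The spread between mice also differed by gene. In CTRL, the coefficient of variation was 4.67% for *Ccng1* and 5.32% for *Mdm2*, but 19% for *Plk2* and 32.5% for *Gdf15*. On day 14 it was 17.9% for *Ccng1* and 17.5% for *Mdm2*.

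Other targets of p53 were examined as a list of 30 genes, all of which were tested. Of these, 17, 15, 13, 12, 10 and 9 were higher from day 7 to day 42, and 4, 8, 9, 6, 2 and 3 were lower. Among all genes, 21.0%, 29.9%, 25.8%, 19.2%, 13.1% and 11.0% were lower on these days. The median log2FC of the list was 0.18 on day 7 and between 0.07 and 0.13 later, compared with -0.00 to 0.02 over all genes. In all, 8 genes were higher on all 6 days, 1 was lower on all 6 days, and 3 (*Ppm1d*, *Fdxr* and *Zfp365*) were called on no day.

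*Cdkn1a*, which encodes the cell cycle inhibitor p21, had a mean of 31.6 CPM in CTRL (SD 8.78, n = 10) and of 290 CPM on day 7 (SD 56.6, n = 10). Its log2FC was 3.20 at that time (standard error 0.16, adjusted p = 1.38e-27) and 2.02 on day 42 (adjusted p = 1.44e-15). The receptors *Eda2r* and *Tnfrsf10b*, both of the TNF receptor family, had their largest log2FC on day 14, at 2.24 and 1.49 (adjusted p = 1.15e-17 and 9.87e-12). *Sfn*, an epithelial 14-3-3 protein, had a log2FC of 2.13 on day 7 and 0.99 on day 42 (adjusted p = 0.00286). These 4 had the largest day 14 changes of the list. *Rps27l*, also higher on all days, has a near-identical paralog and its counts are therefore uncertain.

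The genes lower on day 7 were *Sesn1*, *Rrm2b*, *Xpc* and *Pltp*, which are named here after their values were seen. *Sesn1*, a paralog of *Sesn2*, was lower on all 6 days with log2FC between -0.17 and -0.37, the opposite direction to *Sesn2*. *Rrm2b*, a ribonucleotide reductase subunit that supplies DNA repair, fell from 54 CPM in CTRL to 30.9 CPM on day 14 (log2FC -0.80, adjusted p = 4.7e-10), and *Xpc*, a sensor of nucleotide excision repair, from 58.3 to 40.1 CPM (log2FC -0.54, adjusted p = 3.97e-09). *Pltp*, a phospholipid transfer protein, had a log2FC of -0.89 on day 14 (adjusted p = 1.06e-08). The list thus held genes that moved in both directions.

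**Figure D3:**
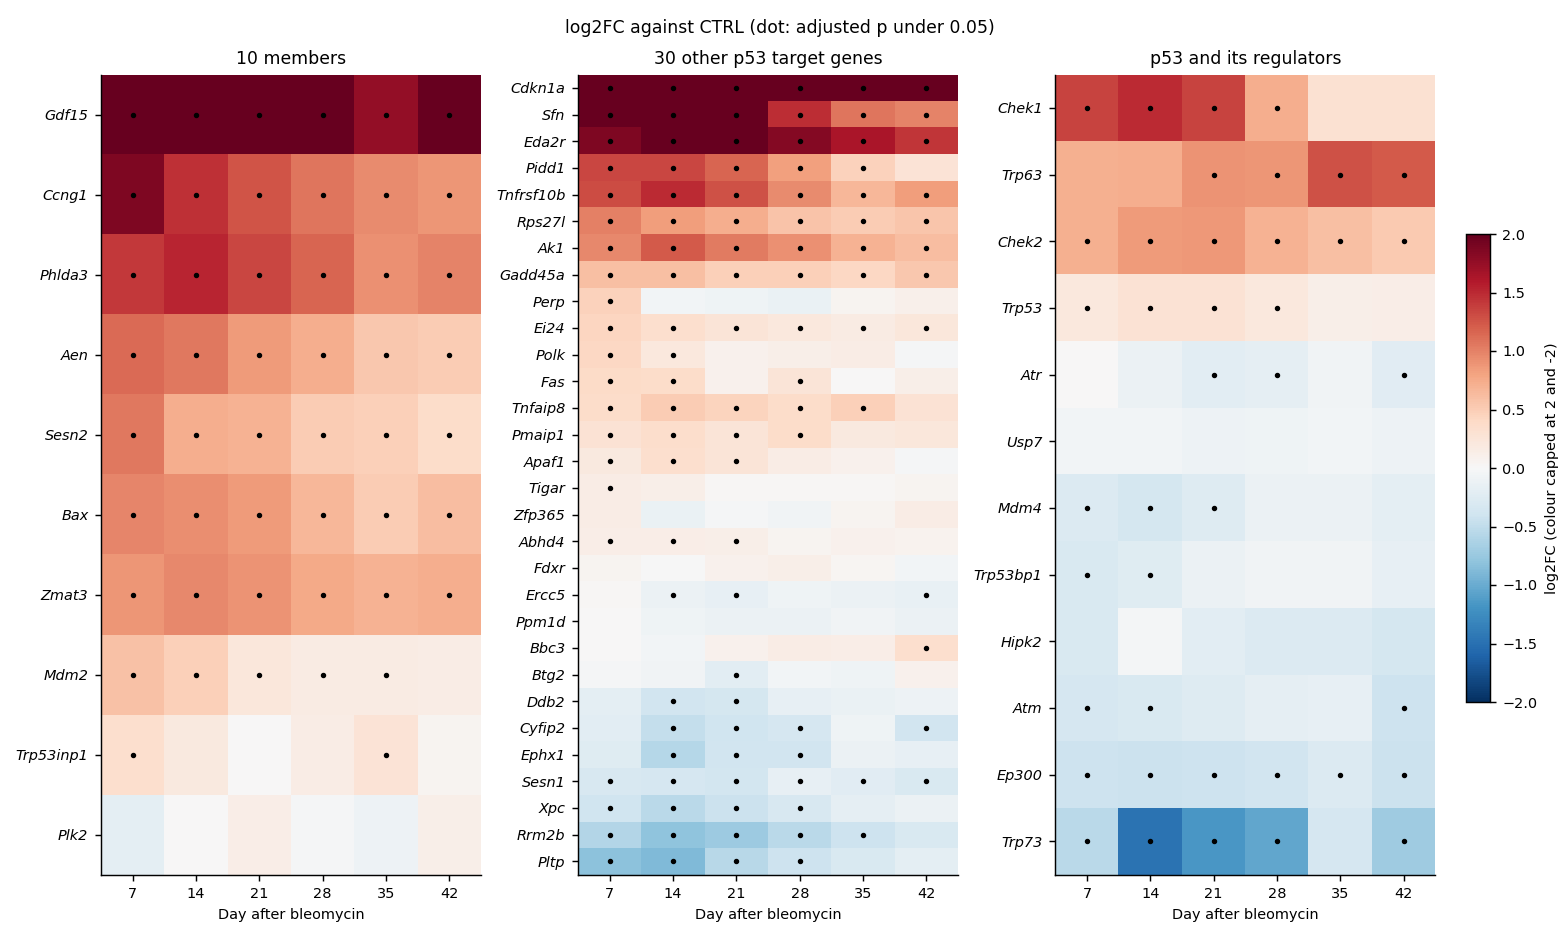
Fitted log2FC against CTRL by day after bleomycin (columns) for the 10 p53 target genes, 30 other p53 target genes and p53 with its regulators (rows, ordered by day 7 within each panel), with color capped at 2 and -2 and a dot where the adjusted p was under 0.05. Most dotted cells of the other targets are red on day 7 (17 genes higher, 4 lower), and *Cdkn1a* is at 2.02 or above on all days.

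For p53 and its regulators, 12 genes were tested. *Trp53* itself had a mean of 40.5 CPM in CTRL (SD 3.11, n = 10) and of 49.5 CPM on day 14 (SD 7.6, n = 12). Its log2FC for days 7, 14, 21 and 28 was 0.21, 0.29, 0.29 and 0.21 (adjusted p = 0.0183, 0.000445, 0.000466 and 0.0169). The values for days 35 and 42, 0.12 and 0.13, did not pass the test (adjusted p = 0.198 and 0.27). *Mdm4*, which binds and inhibits p53 and is related to *Mdm2*, was lower on days 7, 14 and 21, with log2FC of -0.28, -0.35 and -0.26. *Chek2*, a kinase that signals DNA breaks to p53, was higher on all 6 days (0.85 on day 14, adjusted p = 1.09e-07), and *Ep300*, an acetyltransferase and coactivator, was lower on all 6 days (-0.43 on day 14, adjusted p = 4.32e-05). On day 7, 3 of the 12 genes were higher and 5 lower, and on day 42 the numbers were 2 and 4. Among all genes, 24.8% were higher and 21.0% lower on day 7, and 13.7% and 11.0% on day 42. The median log2FC of the list was -0.17 on day 7 and -0.18 on day 42, compared with -0.00 and 0.01 over all genes. The p53 protein was not measured.

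Because *Sesn2* and *Gdf15* are also targets of the integrated stress response, 18 of its target genes were examined. Of these, 9, 9, 7, 8, 6 and 4 were higher from day 7 to day 42, and 2, 3, 5, 3, 3 and 0 were lower. Among all genes, 24.8%, 32.4%, 28.3%, 24.1%, 16.9% and 13.7% were higher on these days. The shares that were lower were 21.0%, 29.9%, 25.8%, 19.2%, 13.1% and 11.0%, so that some of the counts are near the background. On day 42, 1 gene (*Chac1*) was lower at an unadjusted p under 0.05, and DESeq2 called 0. The median log2FC of the list was 0.29 on day 7 and 0.08 on day 42, compared with -0.00 and 0.01 over all genes. *Slc7a11*, *Mthfd2*, *Atf3* and *Nupr1* were higher on all 6 days, with log2FC of 2.51, 1.68, 1.33 and 0.67 on day 14. The 3 genes lower on day 14 were *Atf5*, *Vldlr* and *Chac1* (log2FC -0.44, -0.42 and -0.40), named here after their values were seen. The list thus also held genes that moved in both directions. *Slc7a11* encodes a cystine transporter and *Mthfd2* a mitochondrial folate enzyme.

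Markers of several cell types and states also differed between BLEO-IPF and CTRL mice, while 32.4% of all genes were higher and 29.9% lower on day 14. All 10 markers of proliferating cells were higher on days 7, 14, 21 and 28, 9 on day 35 and 5 on day 42, and their sum ranged from 42.4 to 82.1 CPM in CTRL, from 187 to 428 CPM on day 14 and from 54.2 to 147 CPM on day 42. Of 8 markers of transitional alveolar epithelial cells, 8 were higher on day 7 and 6 on day 42, with sums of 851 to 1107 CPM in CTRL, 1460 to 2666 CPM on day 7 and 1101 to 1542 CPM on day 42. Monocyte-derived macrophage markers were higher for 9 of 10 genes on day 7 and for all 10 on the later days, with sums of 719 to 938 CPM in CTRL, 2650 to 12890 CPM on day 14 and 1179 to 5145 CPM on day 42. From day 7 to day 14 these macrophage markers rose (9 of 10 higher, median log2FC 1.15). Of the 8 transitional cell markers, 4 were lower at this step and 0 higher. Of the 10 p53 target genes, 3 were lower and 0 higher, with 7.55% of all genes lower and 9.48% higher. Fibroblast and myofibroblast markers were higher for 8 of 10 genes on day 14, with a median sum of 3260 CPM in CTRL and 10192 CPM on that day, and for 1 of 10 on day 42, with 1 lower on each of these days. Other lists were lower. On day 14, 7 of 7 club and ciliated cell markers were lower (median sum 26254 CPM in CTRL and 7200 CPM on that day), as were 6 of 8 AT2, 7 of 8 endothelial and 5 of 5 red blood cell markers. Endothelial sums ranged from 5871 to 6959 CPM in CTRL and from 2959 to 5479 CPM on day 14. None of the markers of these lists was at 0 in all libraries of a group. Their part in the levels of the p53 target genes was not tested.

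The mice of day 14 differed from one another in these respects. Mice 1, 3 and 8 had the highest summed macrophage markers, at 11944, 12890 and 12174 CPM, compared with a group median of 5949 CPM. They also had the lowest *Ccng1* (230, 255 and 211 CPM) and the lowest *Sesn2* (35.3, 37.1 and 31.6 CPM), and mice 1 and 8 the lowest *Gdf15* (3.58 and 3.86 CPM). In contrast, their *Mdm2* levels were the highest of the group (127, 114 and 152 CPM). *Trp53inp1* was highest in mouse 8 (219 CPM), and *Zmat3* in mouse 1 (70.1 CPM). AT2 marker sums were lowest in the same 3 mice, at 5802, 6899 and 7437 CPM. From the highest, these mice ranked 10, 11 and 9 of 12 for endothelial sums. For fibroblast and myofibroblast sums they ranked 2, 1 and 5, so the macrophage sum was not the only trait in which they differed. Mouse 8 was also among the libraries that stood apart. Mouse 4, with the next highest macrophage sum (10253 CPM), had 321 CPM of *Ccng1*, 50.3 CPM of *Sesn2* and 105 CPM of *Mdm2*. On day 21 the highest sums were in mice 5, 10 and 3, which ranked 11, 9 and 8 of 12 for *Ccng1*. They ranked 5, 10 and 3 for *Sesn2* and 8, 5 and 2 for *Mdm2*. On day 28 mice 5, 1 and 2 ranked 9, 4 and 2 for *Ccng1*, 11, 7 and 4 for *Sesn2* and 7, 1 and 2 for *Mdm2*. Of these, mice 5 and 1 were among the libraries that stood apart. These values were looked at after the mice had been seen to differ, and no test was made.

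**Figure D4:**
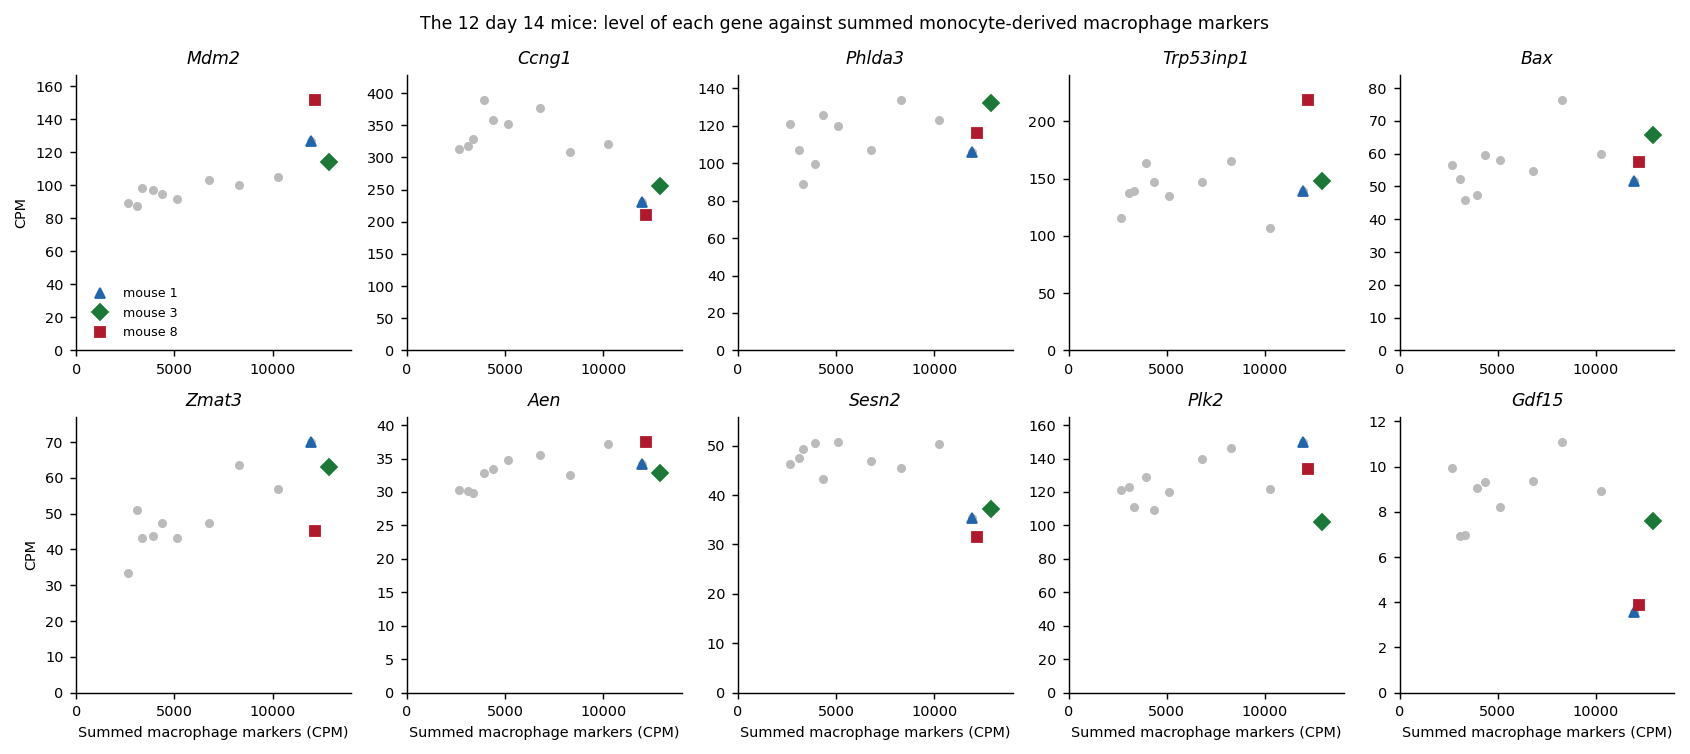
Level of each p53 target gene (vertical axis, CPM) against the summed level of 10 monocyte-derived macrophage markers (horizontal axis, CPM) in the 12 mice of day 14, each point being 1 mouse. The 3 mice with the highest marker sums (mice 1, 3 and 8, colored) have the lowest *Ccng1* and *Sesn2* and the highest *Mdm2*. Mouse 8 is among the libraries that stood apart.

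On day 28, mouse 10 had a summed level of skeletal and cardiac muscle markers of 2045 CPM, compared with a group median of 95.6 CPM. It had the lowest *Bax* (32 CPM), *Zmat3* (29 CPM), *Sesn2* (27.3 CPM) and *Plk2* (97.9 CPM) of its group. From the highest, it ranked 11, 10 and 10 of 12 for *Mdm2*, *Aen* and *Gdf15*, but 5, 7 and 7 for *Ccng1*, *Phlda3* and *Trp53inp1*. A link between these levels and the muscle markers was not tested. Without this library and the other 3 that stood apart, 8 genes were called on day 28, as with them.

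For each gene called on at least 4 days, the 2 genes with the most similar course were sought, by the root mean square difference of the 6 log2FC. *Gdf15* was closest to *Cdkn1a*, at a distance of 0.192, followed by *Cgref1* at 0.292. The nearest to *Aen* was *Ppp1r13l* (0.0653), which encodes an inhibitory binding partner of p53, and then *Anxa1* (0.0725). *Ccng1* was matched by *Hsd11b2* (0.121) and *Ctps* (0.164), and *Phlda3* by *Ctps* (0.0762) and *Tmem173* (0.0781). For *Sesn2* the nearest were *Gpr171* (0.0457) and *Krt18* (0.0723), for *Zmat3* *Cd14* (0.0454) and *Lap3* (0.0459), for *Bax* *S100a11* (0.0625) and *Tceal9* (0.0708), and for *Mdm2* *Hsd17b12* (0.0492) and *Rras2* (0.0544). All 6 comparisons share the CTRL mice, so these distances describe the courses only.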

How the data were processed

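The authors aligned single-end reads of 75 bases from stranded poly(A) libraries with STAR 2.7.0f to GRCm38 (mm10, Ensembl release 96) and deposited raw counts per gene. The counting program and its treatment of strand and of multiply mapped reads are not given in the sources used here. All 75 columns were matched to mice by name. The sources used here do not say whether litters or runs were shared, and mice were treated as independent. The p-values set differences between groups against the spread between these mice.

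From the deposited counts, genes passing edgeR's filterByExpr were fitted in R 4.3.3 with edgeR 4.0.16 (quasi-likelihood F test, TMM factors, 1 mean per group over all 75 mice), and p-values were adjusted by Benjamini-Hochberg over the 16221 genes tested, with 0.05 as threshold. Contrasts between days came from the same fit. CPM are counts per 1000000 with TMM factors, and errors are SDs between mice or standard errors of the fit. Total counts of 9240291 to 14665247 per library set the precision. The same steps were also run on simulated counts in which few genes changed, and only on day 7. These data differ in that many genes changed on every day, so no conclusion is drawn from the simulation. Alternatives were DESeq2 1.42.0, 2 other scalings, 2 other filters, a fit restricted to the compared groups, a replicate block and, chosen after seeing the data, leaving out 4 libraries that stood apart.

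The 10 genes and all gene lists were chosen with earlier results of these data known. In each list, the named genes are at most 4 called in 1 direction on all 6 days, taken by the size of the day 14 change, and *Trp53* and *Mdm4* in any case. Exceptions are the genes said above to be named after their values were seen. The nearest courses were sought among genes with a mean log2 CPM above 1. Promoters are from RefSeq. Python 3.11.15, pandas 2.3.3 and matplotlib 3.10.9 served for tables and plots.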

Additional observations from a re-analysis of the deposited data

Results flagged for a closer look

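The change against CTRL differed between day 42 and day 14 for 7 of the 10 p53 target genes, tested directly between the 2 days in the same edgeR fit. All 7 were lower on day 42, while 18.8% of all genes were lower and 15.2% higher. On the log2 scale the day 42 level minus the day 14 level was -0.32 for *Mdm2* (adjusted p = 0.000103), -0.58 for *Ccng1* (adjusted p = 3.67e-07), -0.53 for *Phlda3* (adjusted p = 3.48e-05), -0.31 for *Bax* (adjusted p = 0.00671), -0.55 for *Aen* (adjusted p = 4.73e-07), -0.36 for *Sesn2* (adjusted p = 0.00323) and -0.79 for *Gdf15* (adjusted p = 0.00106). For *Aen* all 7 mice of day 42 lay below all 12 mice of day 14, and for the other 6 genes the groups overlapped. The share of all genes separated in this way was not determined, so this is a description only. In the groups of 10 or fewer mice, 30 sets of values were examined for a single mouse far from the rest, and none was found. CTRL mouse 2, the highest CTRL mouse for *Mdm2*, *Phlda3*, *Bax*, *Zmat3*, *Aen* and *Sesn2*, was not singled out by this check.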

How the results depend on the processing

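The numbers of p53 target genes called on each day, between day 42 and day 14 and among the 6 days stayed within 1.5 times their value under all 8 alternatives. Because at most 10 genes could be called, these numbers could not have passed this limit upwards, so it is a weak criterion. Of 553 values of single p53 target genes under the alternatives, 541 kept their direction and call. *Trp53inp1* on day 21, at a log2FC close to 0, turned to -0.0087 with DESeq2, -0.0074 with library size as the only scaling, and -0.018 both with upper quartile factors and with at least 10 counts in every library. *Plk2* on day 28 turned to 0.00062 without the libraries that stood apart. Calls were lost without a filter on low counts for *Mdm2* on day 28 (adjusted p = 0.0514) and *Trp53inp1* on day 35 (adjusted p = 0.0557), and gained for *Mdm2* on day 42 in a fit of only those groups (adjusted p = 0.00478) and without the libraries that stood apart (adjusted p = 0.0316). The causes were not tested. *Gdf15* was too low for the stricter filter, and its CTRL libraries limit it most.

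The replicate numbers did not pair the mice. Deviations of the 204 same-numbered pairs from their group means correlated at -0.538 to 0.569 (median 0.00574), and 7 of 75 mice correlated best with their own number. With the replicate number as a block, 9 genes were called on day 14, 8 between day 42 and day 14 and 10 among the days, with *Trp53inp1* gained on day 14 (adjusted p = 0.0209), *Zmat3* gained between day 42 and day 14 (-0.35, adjusted p = 0.00397), and *Plk2* on day 14 turned to 0.0089. It changed no other call of these genes on single days.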
